A study of Homo sapiens with 36 samples.

Results

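The genes described here form the MHC class I antigen presentation pathway in A549 cells, a long-used line from a human lung adenocarcinoma, measured by RNA sequencing during and after a long exposure to the cytokine IL-1β. The 9 members were chosen by name, by matching the symbols HLA-B, HLA-C, HLA-E, B2M, TAP1, TAP2, TAPBP, PSMB8 and PSMB9 to the Ensembl identifiers of the count files, and each symbol matched 1 of the 63677 genes listed. This choice was made with earlier results of these data known. Member counts set beside shares of all genes are therefore not an independent test. Of the 9 members, 8 had enough counts to be tested and PSMB8 did not. Cells were grown in RPMI medium with serum, either with IL-1β at 1 ng/ml or without it, and were collected at days 6, 15 and 21 of exposure. Cells exposed for 21 days were then grown without IL-1β and collected at days 6, 15 and 30 after withdrawal, each time beside untreated control cells. With 3 replicates in each of the 12 groups there were 36 libraries, all from unmodified cells of this single line. The labels call the replicates biological without saying that they came from separate cultures, so the p-values below measure the spread between these samples.

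Class I molecules show peptides from inside a cell to CD8 T cells and natural killer cells. A proteasome cuts proteins into peptides, the transporter TAP moves the peptides into the endoplasmic reticulum, and tapasin helps to load them onto a heavy chain that is bound to β2-microglobulin. Inflammatory signals are known to raise the transcription of these genes through NF-κB, interferon regulatory factors and the transactivator NLRC5. The comparisons ask whether the transcripts were higher in cells exposed to IL-1β than in their controls, and whether a difference was still present after the cytokine was removed.

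Depth ranged from 9116032 to 23570026 counts on genes per library. In 11 of the 36 libraries, 6 from control cells and 5 from IL-1β-exposed cells, mitochondrial genes took 11.8% to 24.6% of these counts, against 5.61% to 7.75% in the other 25 libraries. Of the 11, 8 were collected after withdrawal and 8 carry the replicate number 2. Calls of the members' means, and the called time points, that changed without these libraries are given both ways, and other time points as counts. CXCL8, the chemokine used as a check of the treatment, was higher at day 21 of exposure by 6.91 ± 0.454 on the log2 scale (SE, adjusted p = 2.33e-11, edgeR). The summed level of KRT8, KRT18, EPCAM, ALDH1A1 and AKR1B10, markers of this line, was 9355 to 15113 CPM (counts scaled to library size) in control libraries and 3259 to 10909 CPM in IL-1β libraries. EPCAM, an epithelial adhesion gene, was nearly absent, with 434 counts over all libraries against 1352764 of KRT8. During exposure KRT8 and KRT18, keratins of epithelial cells, fell by 2.12 and 2.00 in mean log2 fold change, and ALDH1A1 and AKR1B10, both metabolic enzymes, fell by 1.20 and 1.59. Of 5 leukocyte markers the T cell gene CD3E was at 0 counts in all libraries, and the summed level of the list was 2.06 to 11 CPM in control libraries and 2.69 to 17.3 CPM in IL-1β libraries, most of it from CD14. Stromal and endothelial markers summed to 1.08 to 3.87 CPM in control and 1.22 to 3.42 CPM in IL-1β libraries, and COL1A1, a fibrillar collagen, rose by 1.02 in mean log2 fold change during exposure. The part of these marker differences in the results below was not tested.

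Of the 9 members, 8 lie in the MHC on chromosome 6 (GRCh37, the build of the counts). HLA-B (ENSG00000234745) lies at chr6:31321649-31334844, HLA-C (ENSG00000204525) at chr6:31236526-31239907, and HLA-E (ENSG00000204592) at chr6:30457286-30461971. TAP2 (ENSG00000204267) at chr6:32789610-32806516, PSMB8 (ENSG00000204264) at chr6:32808494-32812456, TAP1 (ENSG00000168394) at chr6:32812986-32821593 and PSMB9 (ENSG00000240065) at chr6:32811913-32827628 are neighbours, and TAPBP (ENSG00000231925) lies at chr6:33267471-33282061. B2M (ENSG00000166710) lies at chr15:45003556-45011049. The heavy chain genes are close copies of each other and differ between people, so reads of this line may have been split or lost between them. Annotated exons of HLA-B share 30.7% of their bases with DHFRP2 on the same strand, and those of TAP2 share 19.5% with ENSG00000250264. These neighbours had 10 and 2 counts over all libraries. Reads ambiguous between genes were credited to neither, so these counts cannot show whether HLA-B and TAP2 lost reads there. PSMB8 shares 17.3% of its exon bases with the antisense gene PSMB8-AS1 and 3.99% with PSMB9 on the opposite strand.

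Promoters of 8 of the 9 members, all except HLA-E, were found among the RefSeq promoter sequences (GRCh38.p14, 250 bases before and 50 after an annotated start). The sequences below are 5 of them, printed 5′ to 3′, which belong to the members with the clearest differences or carry a match to an NF-κB motif. Capitals mark matches on either strand to 5 motifs. These were an NF-κB motif (GGGA, any base, TTTCC), the class I enhancer κB motif (GGGG, any base, TTCCCC), the core of the interferon-stimulated response element (ISRE; GAAA, any 2 bases, GAAA), the cyclic AMP-like X2 motif TGACGC and the Y box CCAAT.
HLA-B (chr6:31357130-31357429, minus strand): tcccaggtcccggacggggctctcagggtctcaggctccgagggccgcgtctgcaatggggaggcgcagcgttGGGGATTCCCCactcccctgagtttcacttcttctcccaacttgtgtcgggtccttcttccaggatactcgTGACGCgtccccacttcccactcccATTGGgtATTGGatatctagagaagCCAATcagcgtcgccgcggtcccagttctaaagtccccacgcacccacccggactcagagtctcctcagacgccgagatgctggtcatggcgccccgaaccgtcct
B2M (chr15:44711267-44711566, plus strand): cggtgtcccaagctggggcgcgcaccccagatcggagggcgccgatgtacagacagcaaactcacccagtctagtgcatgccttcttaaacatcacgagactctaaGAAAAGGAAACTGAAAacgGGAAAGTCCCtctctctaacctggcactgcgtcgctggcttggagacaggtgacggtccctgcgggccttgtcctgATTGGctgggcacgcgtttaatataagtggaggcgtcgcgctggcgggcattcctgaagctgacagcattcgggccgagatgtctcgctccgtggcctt
TAP1 (chr6:32853655-32853954, minus strand): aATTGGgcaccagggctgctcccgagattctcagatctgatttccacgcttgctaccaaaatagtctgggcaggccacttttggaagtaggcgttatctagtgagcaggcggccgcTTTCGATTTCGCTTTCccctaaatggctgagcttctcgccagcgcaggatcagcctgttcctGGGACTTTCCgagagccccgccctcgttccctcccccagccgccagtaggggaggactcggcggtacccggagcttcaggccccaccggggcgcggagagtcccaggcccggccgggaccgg
TAP2 (chr6:32838690-32838989, minus strand): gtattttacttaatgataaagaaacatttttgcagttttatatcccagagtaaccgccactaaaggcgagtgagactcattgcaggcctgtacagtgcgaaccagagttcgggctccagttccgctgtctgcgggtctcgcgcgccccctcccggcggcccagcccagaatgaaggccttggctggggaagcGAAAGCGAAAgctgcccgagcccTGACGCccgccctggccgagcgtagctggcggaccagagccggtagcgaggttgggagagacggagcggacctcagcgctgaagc
PSMB9 (chr6:32853942-32854241, plus strand): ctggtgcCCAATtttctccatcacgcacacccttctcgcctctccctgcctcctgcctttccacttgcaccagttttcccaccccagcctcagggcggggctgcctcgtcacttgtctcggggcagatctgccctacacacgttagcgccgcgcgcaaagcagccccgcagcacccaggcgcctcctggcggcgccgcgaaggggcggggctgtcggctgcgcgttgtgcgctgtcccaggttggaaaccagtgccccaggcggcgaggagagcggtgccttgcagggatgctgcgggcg

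Counting the annotated start as 0, TAP1 has the NF-κB letters at -72 to -63 and a pair of overlapping ISRE matches from -134 to -119. B2M has them at -125 to -116 beside a pair of overlapping ISRE matches from -144 to -129, and HLA-B has the κB letters at -177 to -167. TAP2 has an ISRE match at -58 to -49 and an X2 match at -35 to -30. X2 matches also lie at -106 to -101 in HLA-B and at -105 to -100 in HLA-C. TAPBP has a pair of overlapping ISRE matches from -20 to -5, and a further start of PSMB8 has 1 from -4 to 5. PSMB9, whose start lies 488 bases from that of TAP1 and points away from it, held only a CCAAT match in its own window. Of 35116 promoters of the same length, 0.558% hold the NF-κB motif, 0.214% the κB enhancer motif, 3.57% the ISRE core, 9.14% the X2 motif and 34.6% a CCAAT. These matches describe letters only, and binding was not measured.

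**Figure D1:**
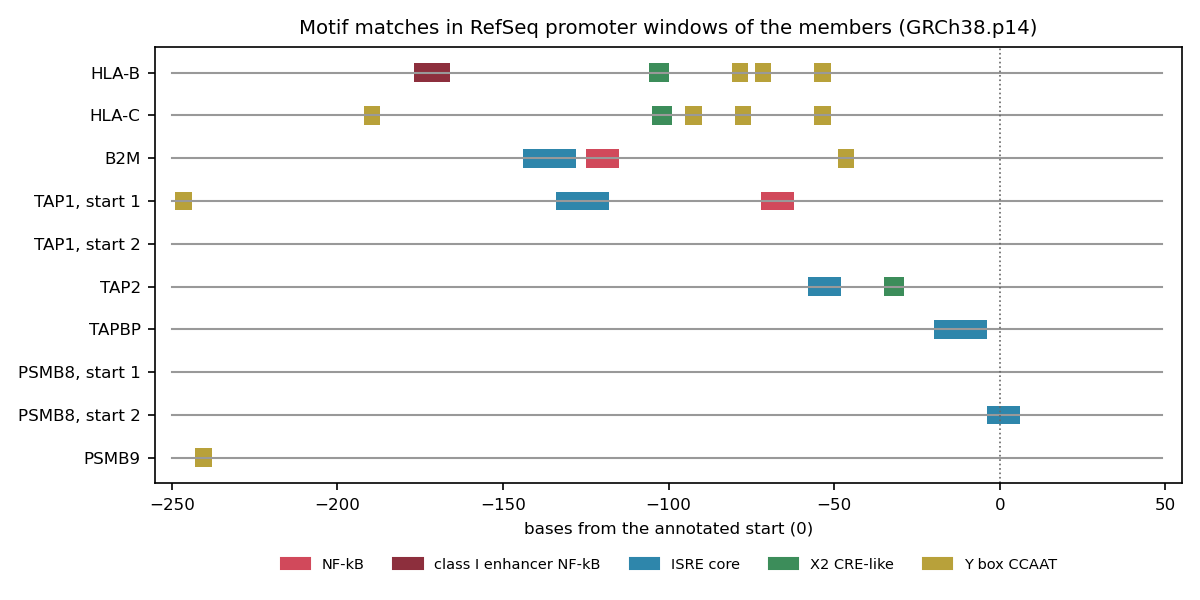
Positions of motif matches in 10 RefSeq promoter windows of 8 members, in bases from the annotated start (0); each grey line is 1 window of 300 bases and each coloured box 1 match, overlapping matches being merged. NF-κB or κB matches are seen in HLA-B, B2M and the first start of TAP1, and ISRE matches in B2M, TAP1, TAP2, TAPBP and the second start of PSMB8.

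In untreated cells the members differed widely in level per length of annotated exon. B2M, the light chain of every class I molecule, had 69.8 ± 9.68 CPM per kb (SD, 18 control libraries). HLA-E, a non-classical heavy chain read by natural killer cells, had 16.3 ± 2.48, TAPBP, which encodes tapasin, 13.8 ± 2.86, and the classical heavy chain HLA-C 13.7 ± 2.20 CPM per kb, and their mean ± SD intervals overlapped. TAP1 at 3.71 ± 0.865 and HLA-B at 3.11 ± 0.567 CPM per kb overlapped in the same way. The immunoproteasome subunit PSMB9 followed with 1.98 ± 0.342 and TAP2 with 1.35 ± 0.275 CPM per kb, and PSMB8 was lowest at 0.00898 CPM per kb. The exon length is that of all annotated exons together, so a gene with rarely used exons is given too low a level. The annotation release behind the counts is not known, so some of these bases may not have been counted. No tested member differed between the control cells of the day 30 collection and those of day 6 at an adjusted p under 0.05 (0 of 8, and 0 at an unadjusted p under 0.05), with log2 differences from -0.35 to 0.01 and standard errors from 0.165 to 0.336, where 0.0104% of all tested genes were lower.

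The transcripts were modestly higher in cells that had met IL-1β. Of the 48 log2 fold changes of 8 members at 6 time points, 47 were above 0, and the exception was HLA-E at day 15 of exposure (-0.18). They ranged from -0.18 to 1.14, and 22 had an unadjusted p under 0.05, as did 11.8%, 17.1% and 13.7% of all tested genes at the successive times of exposure and 9.59%, 8.75% and 8.35% at those after withdrawal. At an adjusted p under 0.05, 6 estimates passed, 1 at each time point, and only PSMB9 at day 30 after withdrawal was also past a fold change of 2. When the 11 libraries with many mitochondrial counts were left out, 6, 2, 3, 0, 0 and 1 members passed at an adjusted p under 0.05 at the successive times. The share of all genes that passed in that reduced fit is not given here, so its counts have no background beside them. In the main analysis 2.29%, 3.32%, 3.31%, 1.62%, 0.85% and 0.683% of all tested genes were higher at an adjusted p under 0.05 alone at these times. With the fold change as well these shares were 1.52%, 1.94%, 2.19%, 1.08%, 0.594% and 0.433%. The members had a median log2 fold change of 0.60, 0.27 and 0.40 with IL-1β and of 0.42, 0.38 and 0.41 once it was withdrawn, against -0.018, -0.021 and -0.0077 and then -0.0014, 0.023 and -0.0039 over all tested genes. In bulk RNA, more transcript per cell and more cells that express a gene cannot be told apart.

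**Figure D2:**
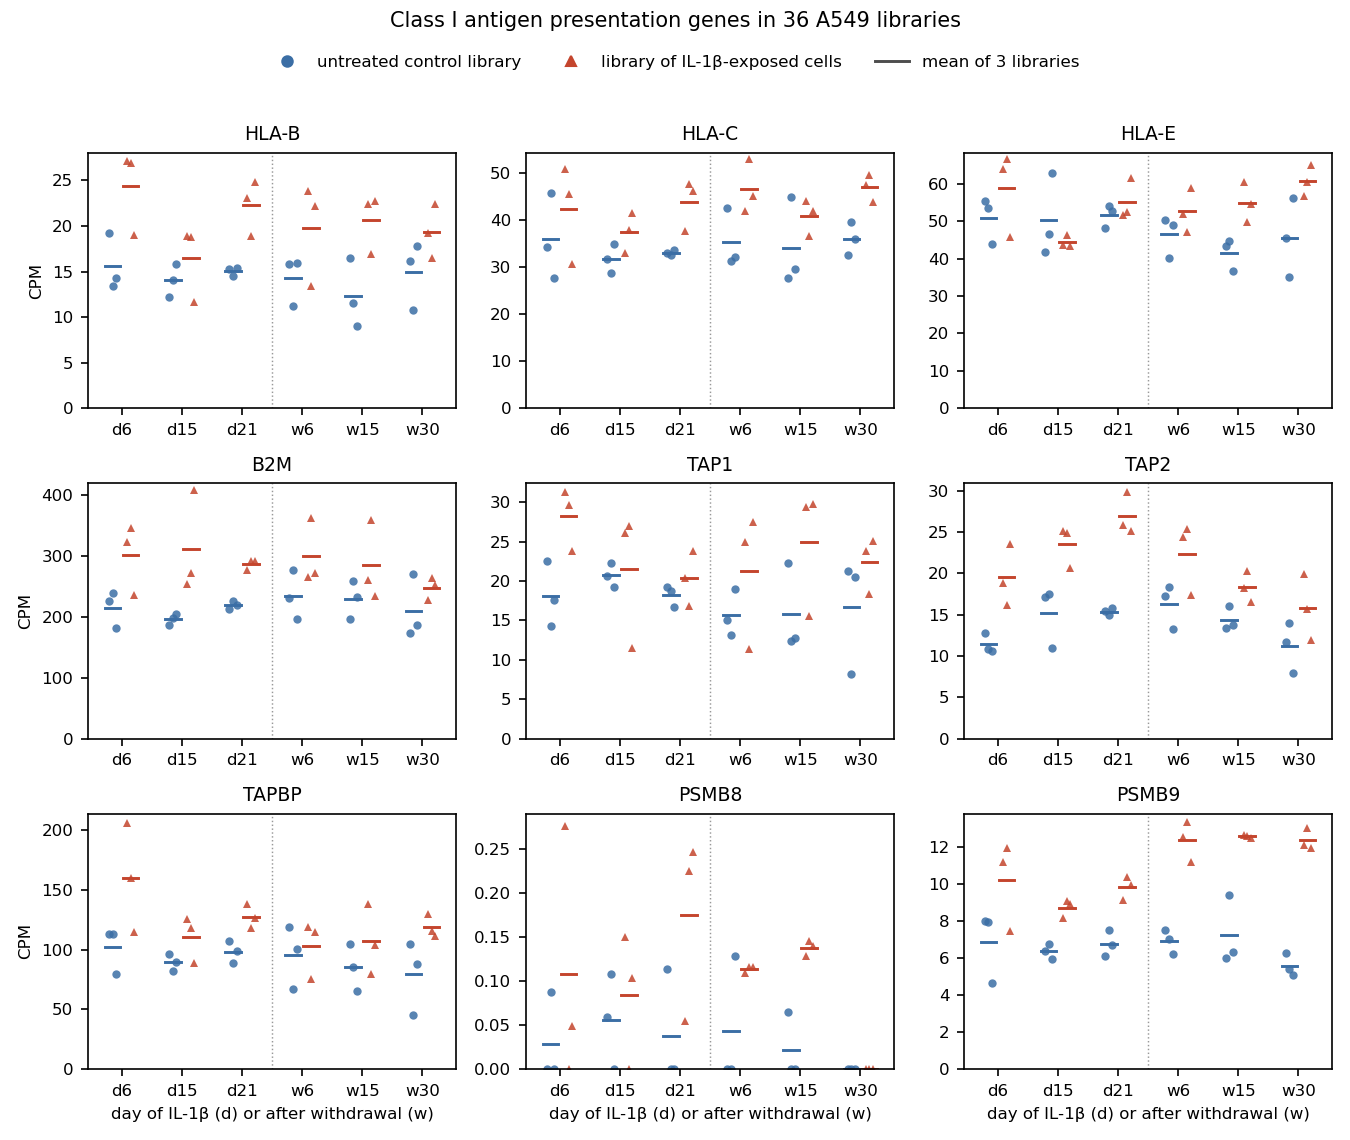
Levels in CPM (linear axes from 0) of the 9 members in all 36 libraries, against day of IL-1β exposure (d) and day after withdrawal (w); circles are control libraries, triangles libraries of IL-1β-exposed cells and lines the means of 3. After withdrawal the 9 PSMB9 libraries of exposed cells sit between 11.2 and 13.3 CPM, above all 9 of their controls, and no PSMB8 library exceeds 0.276 CPM.

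Averaged over the 3 time points of exposure, 5 of the 8 members were higher at an adjusted p under 0.05, namely TAP2, PSMB9, B2M, HLA-B and TAPBP, where 7.54% of all tested genes were. Averaged over the 3 time points after withdrawal, 5 of 8 were again higher, namely PSMB9, HLA-B, TAP2, HLA-C and HLA-E, where the background was 4.43%. With each replicate left out in turn, 1 to 4 and 1 to 3 members passed in these means. Such fits hold fewer libraries in each group, so an adjusted p can rise where the log2 fold change hardly moves. 0 members passed a fold change of 2 in either mean, where 2.51% and 1.43% of genes were higher past both thresholds. The mean log2 fold changes ran from 0.04 to 0.74 during exposure and from 0.30 to 0.93 after withdrawal. Both means rest on 9 libraries against 9 and on the same joint model. These 9 are 3 replicates at 3 successive times, which the model takes as separate samples. Whether libraries of different times came from the same cultures is not known, and if they did these p-values are too small.

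The heavy chains come first in this account because they carry the peptide. HLA-B, a classical heavy chain, had 15.3, 14.5 and 15.4 CPM in the control libraries of day 21 and 23.0, 18.9 and 24.9 CPM with IL-1β. At day 15 after withdrawal its controls had 16.5, 11.5 and 9.04 CPM and the exposed cells 22.4, 16.9 and 22.7 CPM. At both of these times all IL-1β libraries lay above all controls, and at the other 4 times the groups overlapped. HLA-B rose by a mean log2 fold change of 0.48 ± 0.139 (SE) during exposure (adjusted p = 0.0164) and 0.53 ± 0.140 after withdrawal (adjusted p = 0.0151, edgeR). The call of exposure was lost without replicate 1 (0.45, adjusted p = 0.232) or 2 (0.42, adjusted p = 0.0750) and with total counts only (0.48, adjusted p = 0.121). That of withdrawal was lost whichever replicate was left out (0.44 to 0.58, adjusted p from 0.0538 to 0.174). HLA-B was higher in 17 of 18 pairs of libraries with the same time and number, where the number names a library and is not known to pair them.

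HLA-C, the other classical heavy chain measured, had 33.0, 32.6 and 33.8 CPM in the controls of day 21 and 37.7, 47.7 and 46.3 CPM with IL-1β. At day 30 after withdrawal it had 32.6, 39.6 and 36.1 CPM in controls and 47.4, 49.7 and 43.9 CPM in exposed cells. The groups did not overlap at these times and overlapped at the other 4. Its mean log2 fold change was 0.29 ± 0.110 during exposure (adjusted p = 0.0772), and it rose by 0.35 ± 0.110 after withdrawal (adjusted p = 0.0467). Leaving out the 11 libraries gave 0.33 for exposure (adjusted p = 0.0108). The call after withdrawal was lost with a correction for GC content (0.11, adjusted p = 0.810), with DESeq2 size factors (adjusted p = 0.0625), without a filter on low counts (adjusted p = 0.0935) and whichever replicate was left out (adjusted p from 0.102 to 0.466).

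HLA-E had the smallest difference during exposure, a mean log2 fold change of 0.04 ± 0.0952 (adjusted p = 0.886). At day 15 of exposure its controls had 41.7, 46.5 and 62.9 CPM and the IL-1β libraries 43.7, 46.2 and 43.5 CPM, so that the groups overlapped and only control replicate 3 stood apart. After withdrawal HLA-E rose by 0.33 ± 0.0956 (adjusted p = 0.0281), with 45.6, 35.0 and 56.1 CPM in controls and 56.7, 60.4 and 65.1 CPM in exposed cells at day 30. All exposed libraries lay above all controls at days 15 and 30 after withdrawal. Without the 11 libraries of high mitochondrial share the mean after withdrawal was 0.29 (adjusted p = 0.199), and with the GC correction it was 0.18 (adjusted p = 0.417). The call was also lost without replicate 1 (adjusted p = 0.364) or 2 (adjusted p = 0.211) and without a filter (adjusted p = 0.0969). The difference between the mean responses after withdrawal and during exposure was 0.29 ± 0.135 (adjusted p = 0.408, edgeR), and with the GC correction it turned to -0.031.

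B2M, the most abundant member, had 188, 199 and 204 CPM in the controls of day 15 and 254, 273 and 408 CPM with IL-1β. At day 21 it had 214, 226 and 219 CPM in controls and 277, 292 and 293 CPM with IL-1β. At both times the groups did not overlap, and at day 15 the third IL-1β library, which has a high mitochondrial share, was far above the other IL-1β libraries. B2M rose by a log2 fold change of 0.66 ± 0.194 at day 15 (adjusted p = 0.0351) and by 0.51 ± 0.112 in the mean of exposure (adjusted p = 0.00119). The day 15 call was lost without replicate 1 (0.78, adjusted p = 0.291) or replicate 3 (0.46, adjusted p = 0.559), without a filter (adjusted p = 0.0681) and in a separate fit of that time point (adjusted p = 0.214). The call of exposure was lost without replicate 1 (adjusted p = 0.0571). After withdrawal its mean log2 fold change was 0.30 ± 0.112 (adjusted p = 0.108). Without the libraries of high mitochondrial share the day 15 value was 0.42 (adjusted p = 0.0318), that of exposure 0.47 (adjusted p = 4.19e-05) and that after withdrawal 0.41 (adjusted p = 0.00742).

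Of the transport and loading genes, TAP2 showed the largest mean difference during exposure. TAP2 encodes the subunit that forms the peptide transporter together with TAP1. Its controls had 12.7, 10.9 and 10.6 CPM at day 6, then 17.2, 17.4 and 10.9 CPM at day 15, and 15.4, 14.9 and 15.8 CPM at day 21. The IL-1β libraries of these days had 18.8, 16.2 and 23.5 CPM, then 25.1, 24.9 and 20.7 CPM, and 25.9, 29.8 and 25.1 CPM. At each of these times all IL-1β libraries lay above all of their controls. TAP2 rose by a log2 fold change of 0.78 ± 0.212 at day 6 (adjusted p = 0.0291) and 0.81 ± 0.209 at day 21 (adjusted p = 0.0136), and its value at day 15 was 0.64 ± 0.210 (adjusted p = 0.0691). Without the 11 libraries the day 15 value was 0.73 (adjusted p = 0.0332). The day 6 call of TAP2 was lost whichever replicate was left out (0.59 to 0.91, adjusted p from 0.0936 to 0.386) and without a filter (adjusted p = 0.0520), and the day 21 call without replicate 1 (adjusted p = 0.355) or 2 (adjusted p = 0.229).

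The mean of TAP2 over exposure was 0.74 ± 0.121 (adjusted p = 3.33e-05), and it passed an adjusted p under 0.05 in 14 of 14 settings, the main one included, with values from 0.67 to 0.82. After withdrawal the mean was 0.44 ± 0.122 (adjusted p = 0.0208, edgeR), a call that was lost without replicate 1 (0.35, adjusted p = 0.606) or 2 (0.49, adjusted p = 0.105). TAP2 was higher in 18 of 18 same-numbered pairs, and the exposed libraries were at 11.9 to 25.4 CPM after withdrawal, where the controls were at 7.92 to 18.4 CPM. The difference between both means was -0.30 ± 0.172 (adjusted p = 0.534, edgeR).

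TAP1, the other transporter subunit, varied more among replicates. At day 6 of exposure it had 22.6, 14.3 and 17.6 CPM in controls and 31.3, 29.6 and 23.8 CPM with IL-1β, and the groups did not overlap. At day 15 it had 20.6, 22.3 and 19.3 CPM in controls and 26.1, 27.0 and 11.5 CPM with IL-1β, where the lowest is the library of high mitochondrial share. The groups overlapped at all times except day 6. The mean log2 fold change was 0.28 ± 0.193 during exposure (adjusted p = 0.436) and 0.50 ± 0.194 after withdrawal (adjusted p = 0.132). Without the 11 libraries TAP1 was higher by 0.39 during exposure (adjusted p = 0.000337) and 0.38 after withdrawal (adjusted p = 0.0122).

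TAPBP, the gene of the loading chaperone tapasin, had 113, 113 and 79.4 CPM in controls and 206, 160 and 114 CPM with IL-1β at day 6. At day 30 after withdrawal it had 105, 45.5 and 88.3 CPM in controls and 130, 115 and 112 CPM in exposed cells. The groups did not overlap at these times, nor at day 21 of exposure. TAPBP rose by a mean log2 fold change of 0.44 ± 0.150 during exposure (adjusted p = 0.0421). This call was lost whichever replicate was left out (adjusted p from 0.0699 to 0.268), with total counts only (adjusted p = 0.156) and with at least 10 counts required in every library (adjusted p = 0.0598). Its mean after withdrawal was 0.34 ± 0.150 (adjusted p = 0.211). With the 11 libraries left out, the values of exposure and withdrawal were 0.55 (adjusted p = 0.000557) and 0.26 (adjusted p = 0.357).

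PSMB9 encodes LMP2, a catalytic subunit that replaces a constitutive one in the immunoproteasome. During exposure its controls had 7.98, 7.92 and 4.67 CPM at day 6, then 6.39, 6.72 and 5.94 CPM at day 15, and 6.10, 7.48 and 6.69 CPM at day 21. The IL-1β libraries of these days had 11.2, 11.9 and 7.45 CPM, then 8.16, 9.06 and 8.90 CPM, and 9.12, 10.3 and 9.93 CPM. The groups overlapped at day 6, where the third IL-1β library and the third control were each the lowest of their group. They did not overlap at days 15 and 21. PSMB9 rose by a mean log2 fold change of 0.52 ± 0.109 during exposure (adjusted p = 0.000709), or by 0.56 without replicate 1 (adjusted p = 0.0504).

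After withdrawal the cells that had been exposed had 11.2 to 13.3 CPM of PSMB9 and their controls 5.07 to 9.38 CPM. At day 6 after withdrawal the controls had 7.48, 7.0 and 6.23 CPM and the exposed cells 12.5, 13.3 and 11.2 CPM. At day 15 the controls had 5.97, 9.38 and 6.30 CPM and the exposed cells 12.6, 12.6 and 12.4 CPM, and at day 30 they had 6.24, 5.4 and 5.07 CPM against 12.1, 13 and 11.9 CPM. All 9 exposed libraries after withdrawal lay above all 9 controls, as they did for 0.719% of the tested genes. The log2 fold change was 0.84 ± 0.190 (adjusted p = 0.00949), 0.80 ± 0.189 (adjusted p = 0.0249) and 1.14 ± 0.191 (adjusted p = 0.00114, edgeR) at the 3 times. The third, a 2.21-fold difference, was past both thresholds, and it was so in 11 of 14 alternatives. The exceptions were a separate fit of each time point and the fits without replicate 1 (adjusted p = 0.193) or replicate 2 (adjusted p = 0.120). The call at day 6 after withdrawal was lost without replicate 1 (adjusted p = 0.418) or 2 (adjusted p = 0.198), and that at day 15 whichever replicate was left out (adjusted p from 0.127 to 0.848). Both were also lost without the 11 libraries (0.94, adjusted p = 0.0569, and 1.08, adjusted p = 0.167), where 1 control library is left at each of these times, without a filter (adjusted p = 0.0593 and 0.10) and in separate fits (adjusted p = 0.357 and 0.501).

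The mean of PSMB9 after withdrawal was 0.93 ± 0.110 (adjusted p = 6.90e-07), the highest of the 8 members, and it passed an adjusted p under 0.05 in 14 of 14 settings with values from 0.88 to 1.06. Without the 11 libraries it was 1.04 (adjusted p = 9.00e-05). PSMB9 was higher in 18 of 18 same-numbered pairs. The response after withdrawal exceeded that during exposure by 0.41 ± 0.154 (adjusted p = 0.231), and that at day 30 after withdrawal exceeded that at day 21 of exposure by 0.61 ± 0.266 (adjusted p = 0.698, edgeR). Neither difference passed the adjustment over all tested genes.

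PSMB8, the partner subunit LMP7, had almost no counts. It had 41 counts over the 36 libraries, 10 of them in control cells (exact 95% Poisson interval 4.8 to 18.4) and 31 in IL-1β-exposed cells (21.1 to 44), which is 0.0355 (0.0170 to 0.0653) and 0.107 (0.0730 to 0.153) CPM without scaling. A count was present in 6 of 18 control libraries and 13 of 18 IL-1β libraries. At day 30 after withdrawal it had 0 counts in 6 libraries, which allows up to 0.0314 CPM with a limit of 3 counts over both groups. These intervals cover counting error only and leave out the spread between libraries. PSMB8 was tested only without a filter on low counts, where it passed at no time and in neither mean. Its log2 fold change was 1.53 in the mean of exposure (adjusted p = 0.335) and 0.92 in that of withdrawal (adjusted p = 0.99995, edgeR). The strand setting of the counting is not known, so with the exon bases that PSMB8 shares with PSMB8-AS1 and PSMB9 its low value is uncertain, and the part of this overlap was not tested. The same control libraries held 1834 counts of PSMB9 and the same IL-1β libraries 3238.

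**Figure D3:**
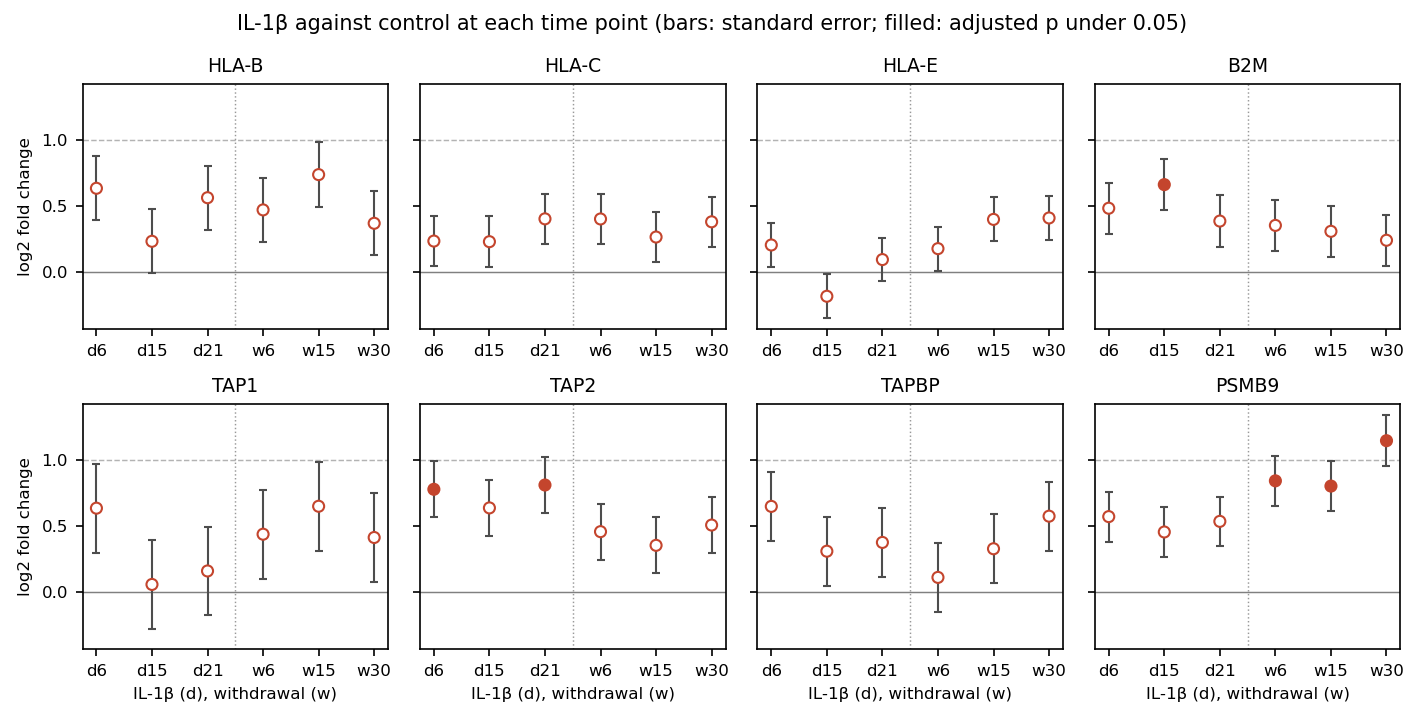
Log2 fold change of IL-1β-exposed against control cells for the 8 tested members at each time point, with standard errors as bars; filled points have an adjusted p under 0.05, the solid line is 0 and the dashed line a fold change of 2. All but 1 point lie above 0, TAP2 is filled at days 6 and 21 of exposure, B2M at day 15, and PSMB9 at all 3 times after withdrawal, with only its day 30 point past the dashed line.

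In counts of groups that did not overlap, the IL-1β libraries lay above the controls in 3, 3 and 6 of the 8 members at the successive times of exposure, where 10.6%, 11.5% and 13.8% of tested genes did. At the times after withdrawal this was so in 1, 4 and 4 members, where 5.51%, 6.02% and 6.78% of genes did. The member at day 6 after withdrawal was PSMB9. In no member did all IL-1β libraries lie below the controls. Of all tested genes, 11.2%, 13.9% and 15.2% did so at the times of exposure and 5.24%, 4.90% and 5.11% after withdrawal. With 8 members, a count of 0 is near these shares. When the means of the 12 groups were ordered, the 6 highest were the 6 IL-1β groups in HLA-B, HLA-C, B2M, TAPBP and PSMB9, and 5 of the 6 in HLA-E, TAP1 and TAP2, though neighbours in the order mostly overlapped. No share of all genes is given for this order or for the counts of same-numbered pairs above, so neither has a background.

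The test of a change in the response over time found no member. Between day 6 and day 21 of exposure the differences ran from -0.47 to 0.17, with standard errors from 0.233 to 0.472, and 0 of 8 had an unadjusted p under 0.05. Between day 21 of exposure and day 6 after withdrawal they ran from -0.35 to 0.31, again with 0 of 8. Between day 21 and day 30 after withdrawal they ran from -0.30 to 0.61 and 1 of 8 had an unadjusted p under 0.05. The mean after withdrawal against that of exposure gave 2 of 8, and 0 passed at an adjusted p in any of the 4, where 0.00521%, 0.0469%, 0.36% and 1.20% of genes were higher. A change as small as these standard errors could not have been detected.

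The 8 members did not move together from library to library. Across the 18 differences in log2 CPM between same-numbered IL-1β and control libraries, 14 of the 28 pairs of members had a Pearson r above 0, with a median of 0.02, from -0.78 for HLA-E with B2M to 0.86 for HLA-B with TAP1. These 18 points share libraries of unequal mitochondrial share. The r of the difference with the log2 ratio of mitochondrial share was -0.89 for TAP1, -0.83 for HLA-B, -0.57 for HLA-E and -0.24 for TAPBP, and 0.64 for B2M, 0.54 for TAP2 and 0.41 for HLA-C. PSMB9 had -0.16. Compared with their group means, the 11 libraries of high mitochondrial share were lower in TAP1 by a log2 difference of -0.63 relative to the others (11 of 11 below) and in HLA-B by -0.39 (10 of 11), and higher in B2M by 0.29 (1 of 11 below).

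**Figure D4:**
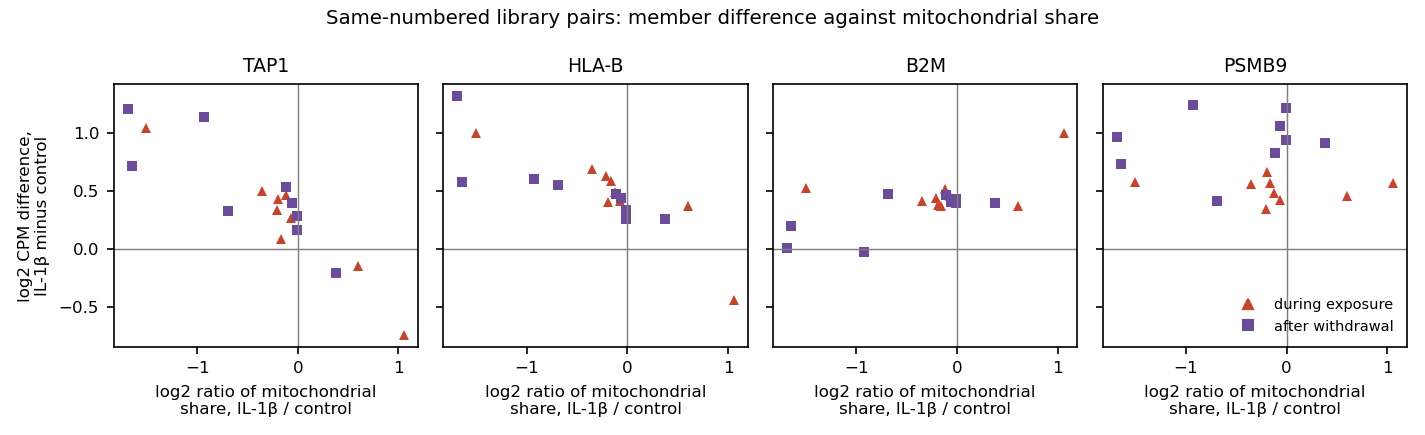
Difference in log2 CPM between same-numbered IL-1β and control libraries (vertical) against the log2 ratio of their mitochondrial shares (horizontal), 18 points a member; triangles are days of exposure and squares days after withdrawal. The points of TAP1 and HLA-B fall from left to right (r = -0.89 and -0.83), those of B2M rise (r = 0.64), and all 18 points of PSMB9 lie above 0.

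Of the 8 genes whose differences were most like the mean of the z-scored members over these 18 points, 7 are named here, PRPF6 (r = 0.91), PSMG4 (0.89), RPL7A (0.88), NOP53 (0.88), PRRT1 (0.87), MNT (0.87) and ENSG00000244313 (0.86). PRPF6 is a splicing factor, PSMG4 a proteasome assembly chaperone and RPL7A a ribosomal protein. None of these 7 differed in the mean of exposure or of withdrawal at an adjusted p under 0.05, and their mean log2 fold changes ran from -0.47 to 0.04. The members themselves had an r with their own mean from -0.60 for B2M and -0.29 for TAP2 to 0.78 for TAPBP and 0.83 for HLA-E.

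Other genes of the pathway were read from lists of known function, which were also chosen with earlier results of these data known. Of 6 genes of peptide loading and trimming, 3 were higher during exposure and 3 after withdrawal at an adjusted p under 0.05, where 7.54% and 4.43% of all tested genes were. TAPBPL, a relative of tapasin that edits peptides, had a mean log2 fold change of 0.37 ± 0.149 during exposure (adjusted p = 0.10) and rose by 1.5 ± 0.155 after withdrawal (adjusted p = 9.08e-08). It passed both thresholds at days 6, 15 and 30 after withdrawal with 1.66, 1.58 and 1.25, from 3 to 46 counts in a library. Its response after withdrawal exceeded that during exposure by 1.13 ± 0.215 (adjusted p = 0.00182, edgeR). ERAP2, an aminopeptidase that trims peptides and was chosen for mention after its values were seen, rose by 0.98 ± 0.147 and 0.84 ± 0.149 in the 2 means (adjusted p = 9.71e-06 and 0.000241).

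Of 8 further proteasome genes, 2 were higher during exposure and 2 after withdrawal (background 7.54% and 4.43%). PSMB10, the remaining catalytic subunit of the immunoproteasome and also named after its values were seen, had a mean log2 fold change of 0.52 ± 0.251 during exposure (adjusted p = 0.205). After withdrawal PSMB10 rose by 1.13 ± 0.265 (adjusted p = 0.005). PSME2, a subunit of the proteasome activator PA28 named in the same way, rose by 0.39 ± 0.0753 and 0.41 ± 0.0755. Of 6 cytosolic peptidases, 1 was higher during exposure and 0 after withdrawal.

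Of 11 listed regulators, among them the class II transactivator CIITA, 2 were higher during exposure and 4 after withdrawal (background 7.54% and 4.43%). IRF1, an interferon regulatory factor, rose by 0.62 ± 0.115 during exposure (adjusted p = 0.000173) and 0.58 ± 0.116 after withdrawal (adjusted p = 0.000993). NLRC5, the class I transactivator, had a mean log2 fold change of 0.29 ± 0.215 during exposure (adjusted p = 0.509) and rose by 0.83 ± 0.219 after withdrawal (adjusted p = 0.0138), with group means of 3.73 to 4.11 CPM in these controls and 6.84 to 7.6 CPM in exposed cells. The difference between both means of NLRC5 did not pass the test (0.55 ± 0.307, adjusted p = 0.526).

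Of 6 interferon receptor and kinase genes that could be tested, 5 were higher during exposure and 0 after withdrawal (background 7.54% and 4.43%). IFNGR1, a chain of the interferon-γ receptor, rose by 1.15 ± 0.126 during exposure (adjusted p = 4.39e-08), had 0.19 ± 0.125 after withdrawal (adjusted p = 0.454), and its response fell by 0.97 ± 0.177 between both (adjusted p = 0.00111). The interferon genes IFNB1, IFNG and IFNL1 had 1, 1 and 2 counts over all libraries. Of the other class I heavy chains listed, 1 of 3 was higher during exposure and 0 of 3 after withdrawal. Of 7 class II genes 1 had enough counts to be tested, and it did not pass.

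**Figure D5:**
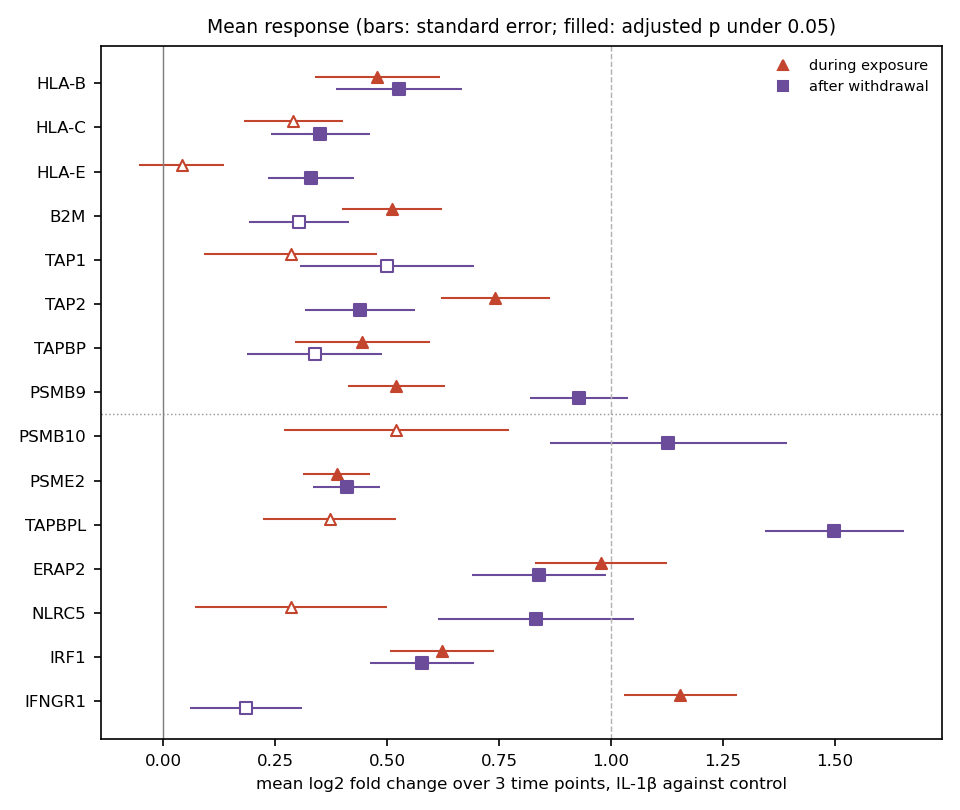
Mean log2 fold change over 3 time points, IL-1β-exposed against control cells, for the 8 tested members (above the dotted line) and 7 other pathway genes; triangles are exposure, squares withdrawal, bars standard errors, filled points an adjusted p under 0.05 and the dashed line a fold change of 2. PSMB9, PSMB10, NLRC5 and TAPBPL are among those further right after withdrawal, and IFNGR1 and TAP2 among those further right during exposure. The differences between both means passed an adjusted p under 0.05 for TAPBPL and IFNGR1, and did not for PSMB9, NLRC5 and TAP2.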

How the data were processed

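A549 cells with and without IL-1β were profiled by RNA sequencing in 36 libraries of 12 groups, grouped by treatment and time point from the labels. The authors made stranded mRNA libraries (KAPA), aligned single-end HiSeq reads to GRCh37 with TopHat2 2.0.14 and Bowtie2 2.2.5, demultiplexed them with bcl2fastq 2.17, and deposited raw counts per Ensembl gene from HTSeq 0.6.1, versions being those of the submitters' processing notes. The strand setting and annotation release are not given in the sources used here. Lines for reads on no gene (8.48% to 18.6%) or ambiguous between genes (2.62% to 4.18%) stayed out of library sizes and tests.

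Counts were scaled by TMM and filtered by filterByExpr, which kept 19180 of 39471 genes with any count. A quasi-likelihood model in edgeR 4.0.16 (R 4.3.3) took in all 36 libraries, with a term for each group (24 residual degrees of freedom), and p-values were adjusted by Benjamini-Hochberg over all tested genes. Both thresholds of the study's methods, a fold change over 2 and an adjusted p under 0.05, had to be met for a gene to be past both. Log2 CPM used a prior count of 2. Symbols, positions and exon lengths came from GENCODE v44lift37, which gave symbols for 55665 of the 63677 genes, and GC content was available for 18611 tested genes. The model was tested on simulated counts. Tables were made with Python 3.11.15, numpy 2.4.6, pandas 2.3.3 and scipy 1.17.1, and figures with matplotlib 3.10.9. Promoter sequences came from RefSeq (GRCh38.p14), and the 5 motifs searched in them were consensus letters from general knowledge.

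Alternatives were DESeq2 1.42.0 size factors or its Wald test, total counts only, other filters, separate fits of each time point, a replicate block, each replicate left out, exclusion of or a covariate for libraries with over 10% mitochondrial counts, and a GC correction. The GC correction together with the block was added after seeing the data. Named genes were all members, NLRC5, IRF1 and CXCL8, at most 8 list genes that met both thresholds at no fewer than 2 times (ranked by mean response during exposure), and the 8 most alike genes. ERAP2, PSMB10 and PSME2 were named outside this rule, after their values were seen. Some genes of the rule and lists are not reported here. The members and lists were chosen with earlier results of these data known. The 8012 identifiers without a symbol, 0.748% to 0.985% of counts, were not searched for class I genes.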

Additional observations from a re-analysis of the deposited data

How the results depend on the processing

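Of 363 comparisons of member counts with an alternative, 291 were within 1.5 times the main count and 72 were not, and of 932 values of single members 794 kept their direction and side of the threshold, 75 gained and 52 lost the call and 11 changed sign. The mean response of TAP2 during exposure and of PSMB9 after withdrawal kept their calls in every alternative run. Counts of members at an adjusted p under 0.05 follow in the order days 6, 15 and 21 of exposure, days 6, 15 and 30 after withdrawal (each 1 in the main analysis). They were 3, 1, 1, 1, 2, 1 with total counts only, 0, 0, 1, 0, 0, 1 without a filter, 2, 2, 2, 1, 1, 1 with DESeq2's Wald test, 1, 0, 6, 0, 0, 0 with a separate fit of each time point, 6, 2, 3, 0, 0, 1 without the libraries over 10% mitochondrial (where 1 control library is left at days 6 and 15 after withdrawal and is assumed to vary like the others), 3, 2, 2, 2, 2, 1 with the mitochondrial covariate and 5, 4, 3, 2, 2, 2 with the GC correction. For the means of exposure and withdrawal (5 and 5), leaving out the filter gave 3 after withdrawal. Past both thresholds the counts were 0, 0, 0, 0, 0, 1 and 0 in both means. An adjusted p alone gave 1 at each time from day 6 of exposure to day 15 after withdrawal and 5 in each mean. Total counts only gave 1 at day 15 after withdrawal and 1 in the mean of withdrawal (where the median of all genes was 0.21 and 0.12 under this scaling, against 0.023 and 0.0055), and leaving out the mitochondrial libraries gave 1 in the mean of withdrawal. The separate fit gave 0 at day 30 after withdrawal.

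With each replicate left out in turn, members at an adjusted p under 0.05 numbered 0 at day 6 of exposure and day 15 after withdrawal whichever was left out, 0 to 1 at the other 4 times, 1 to 4 in the mean of exposure and 1 to 3 in that of withdrawal, and members past both thresholds 0 to 1 at day 30 after withdrawal. The call of PSMB9 at day 30 after withdrawal was lost without replicate 1 (1.23, adjusted p = 0.193) or 2 (1.08, adjusted p = 0.120). The calls of TAP2 at day 6 (lowest adjusted p = 0.0936) and of PSMB9 at day 15 after withdrawal were lost whichever replicate was left out, and those of B2M at day 15 without replicate 1 or 3, of TAP2 at day 21 without replicate 1 or 2 and of PSMB9 at day 6 after withdrawal without replicate 1 or 2. Signs changed for HLA-E at day 15 (-0.27 to 0.035 over the replicates left out, above 0 without replicate 3, and 0.28 with the GC correction, with or without the block), TAP1 at day 15 (-0.093 to 0.31, below 0 without replicate 1 or 2) and day 21 (-0.024 to 0.30, below 0 without replicate 3), TAPBP at day 6 after withdrawal (-0.028 with the mitochondrial covariate), HLA-C at day 30 after withdrawal (-0.13 with the GC correction, -0.036 with the block as well) and the difference of HLA-E between withdrawal and exposure (-0.031 and -0.032 with the same settings). The cause of these changes was not tested.

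Same-numbered libraries did not all deviate together (r from -0.34 to 0.72 over 18 pairs, 14 of them over 0.1), so the replicate numbers were not taken as pairs. With the replicate block the counts were 2, 2, 2, 1, 1, 1 at the 6 times and 5 and 6 in the means. With the GC correction and the block, chosen after seeing the data, they were 6, 5, 5, 2, 3, 2. Each member symbol matched 1 identifier, so summing identifiers gave the same values. Standard errors of 0.165 to 0.337 at single time points limit what these libraries can show. PSMB8 could be tested only without a filter on low counts, and it did not pass. Values of genes outside the 9 members are given for the main analysis only.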
